A study of Mus musculus with 41 samples.

Results

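The oligoadenylate synthetases are interferon-induced sensors of double-stranded RNA, and 8 mouse genes of the family were followed here through the brains of mice that lack the transcription factor YY1 in astrocytes. The genes were Oas1a, Oas1b, Oas1c, Oas1g, Oas2, Oas3, Oasl1 and Oasl2, chosen by name from the 24946 genes kept in the expression table. Both genotypes were C57BL/6J mice of both labelled sexes, 12 weeks old by their labels. The controls were labelled Yy1-floxed and the knockouts astrocytic Yy1-cKO, here called floxed and cKO. The recombinase came from GFAP-cre mice, in which the promoter of the astrocyte gene Gfap drives it. No group carried the recombinase without the floxed allele, so that an effect of the recombinase itself cannot be told apart from loss of YY1. Polyadenylated RNA was sequenced from the whole dissected cortex, midbrain and cerebellum of each animal. The 39 libraries with a clear region comprised 6 floxed and 5 cKO cortices, 7 and 7 midbrains, and 7 and 7 cerebella. The remaining 2 libraries, whose labels name different regions, are not in any comparison.

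Synthetases of this family bind double-stranded RNA, such as viral RNA, and then join ATP into short chains known as 2-5A. These chains serve as a second messenger of the antiviral response. Type I interferon switches the genes on through the transcription factor complex ISGF3, which binds an interferon-stimulated response element in their promoters, and in the brain both glia and neurons can respond in this way.

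All 8 genes lie on mouse chromosome 5. In the GENCODE annotation of GRCm38 (mm10), the Oas1 paralogues, Oas2 and Oas3 form 1 cluster between positions 120730333 and 120921652, and Oasl2 and Oasl1 lie between 114896936 and 114937915. RefSeq promoter windows (GRCm38.p6, 250 bases before to 50 after the annotated start) matched 6 of the 8 genes, not Oas1b or Oas2. They were searched on both strands for the core of the interferon-stimulated response element, 2 copies of GAAA with any 2 bases between them, which 3.44% of 32851 windows hold. The last 130 bases before each start are printed 5′ to 3′ along the gene, to show where that core lies. Capitals mark it, and where 2 matches overlap the capitals run over both.

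Oas1a: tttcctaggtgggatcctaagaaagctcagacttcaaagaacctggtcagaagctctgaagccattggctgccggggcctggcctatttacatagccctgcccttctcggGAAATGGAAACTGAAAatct
Oas1g: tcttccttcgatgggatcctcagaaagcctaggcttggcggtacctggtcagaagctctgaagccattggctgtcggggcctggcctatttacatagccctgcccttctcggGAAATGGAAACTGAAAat
Oas1c: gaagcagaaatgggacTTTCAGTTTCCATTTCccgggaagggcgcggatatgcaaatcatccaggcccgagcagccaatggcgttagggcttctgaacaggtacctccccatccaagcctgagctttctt
Oas3: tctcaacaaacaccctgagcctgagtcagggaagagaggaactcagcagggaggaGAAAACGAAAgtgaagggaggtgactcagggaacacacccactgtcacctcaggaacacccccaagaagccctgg
Oasl1: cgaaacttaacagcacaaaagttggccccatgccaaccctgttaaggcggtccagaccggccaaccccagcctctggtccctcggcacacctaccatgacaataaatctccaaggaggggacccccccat
Oasl2: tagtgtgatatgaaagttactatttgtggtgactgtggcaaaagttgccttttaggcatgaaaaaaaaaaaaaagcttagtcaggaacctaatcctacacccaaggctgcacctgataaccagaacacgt

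These stretches lie at chr5:120907526-120907655 for Oas1a, chr5:120887614-120887743 for Oas1g, chr5:120812515-120812644 for Oas1c and chr5:120777660-120777789 for Oas3, all on the minus strand, and at chr5:114923110-114923239 for Oasl1 and chr5:114896804-114896933 for Oasl2, both on the plus strand. Oas1a and Oas1g carry the same 16 bases, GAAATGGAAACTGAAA, 20 to 5 and 18 to 3 bases before the start. Their 300-base windows are identical at 261 of 306 alignment columns, or 85.3%. Oas1c carries the reverse complement of those 16 bases, 114 to 99 bases before its start. Oas1c and Oas1b point away from each other with 120 bases between their annotated starts, so that the same 16 bases lie 22 to 7 bases before the start of Oas1b. Only 5 genes had these 16 bases in a promoter window, the other 2 being Apol9a and Apol9b, which are apolipoprotein L genes. Oas3 has a single core, GAAAACGAAA, 75 to 66 bases before its start. The Oasl1 and Oasl2 windows hold no match to these letters. The windows were also searched for a YY1 core, AANATGGC, and a gamma-activated site, TTCNNNGAA, where N is any base. Of all windows 6.05% hold the first and 8.30% the second. Among the windows of the members the YY1 core was not found, and the gamma-activated site was found in Oas1a alone. A match describes the sequence and does not show that a factor binds it.

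Reads of close relatives can be credited to the wrong gene. Of all 50-base stretches of the longest coding transcript, 50 bases being the length of a read, 57.6% in Oas1a and 54.7% in Oas1g also occurred in another family member, mostly in each other. The share was 10.7% in Oas1c and 1.35% in Oas1b, and no stretch of Oas2, Oas3, Oasl1 or Oasl2 was shared. The split of reads between Oas1a and Oas1g is therefore uncertain. The library kit does not mark strand, and an antisense gene overlaps 227 exon bases of Oas1c (Gm43069) and 38 of Oasl1 (Gm13822), whose reads cannot be told apart there.

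Values are normalised read counts as the authors deposited them, and library totals ran from 21.5 to 28.8 M. The spacing of low values gave an estimate of 6.74 to 69.7 M reads behind a library. Yy1 fell in cKO cortex by 0.26 on the log2 scale (adjusted p = 0.0166), in midbrain by 0.24 (adjusted p = 0.0180) and in cerebellum by 0.86 (adjusted p = 0.00114, limma on log2(value + 1), all genes). One library went against its genotype label. The library labelled floxed cerebellum 6 had a Yy1 level of 585, within the cKO cerebellum range of 499 to 683, and a Gfap level of 25729. At an estimated 69.7 M reads it was also the deepest library. The members' genotype effects in cerebellum are given with and without it. Without it, no other gene named with a cerebellum effect here moved by over 1.5 times or lost its call. Of 18 libraries labelled female, 9 lacked Xist and expressed the Y-linked gene Ddx3y. The marker sets of cortex and cerebellum separated their libraries, but midbrain libraries also held cortex markers (summed level 4834 to 7365 in floxed midbrain against 8310 to 11336 in floxed cortex). The midbrain set did not separate midbrain from cerebellum (1239 to 1859 in floxed midbrain against 872 to 4464 in floxed cerebellum). Estimated depth was lower in cKO than in floxed libraries by 0.42 on the log2 scale in midbrain (two-sided exact permutation p = 0.0449) and by 0.77 in cerebellum (p = 0.0583). With depth as a covariate 3 results of the members crossed the threshold, and each is given beside its own value.

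Loss of astrocytic YY1 was accompanied by higher expression of every synthetase gene that could be tested, in all 3 regions. In cortex 7 of the 7 tested genes rose, in midbrain 7 of 7 and in cerebellum 8 of 8 (limma with labelled sex as covariate, Benjamini-Hochberg adjusted p under 0.05 over all genes). Among all the genes tested, the share that rose was 10.5% in cortex, 8.48% for midbrain and 19.4% for cerebellum. The filter kept a gene once the number of libraries at 10 or above reached the size of the smaller group. Oas3 missed that in cortex and midbrain, so the 7 tested genes are not the whole family there. Oas1g, with 0 floxed libraries at 10 or above in cortex and in midbrain, and Oasl1, with 1 in each, passed it there through the cKO libraries, as did Oas3 in cerebellum with 1 floxed library at 10 or above. Oas1g also passed it in cerebellum through its cKO libraries, all at 50.2 or above. Its floxed values there were 14.6 or less outside the library labelled floxed cerebellum 6. A gene that passes in that way had to differ, so that these counts are set in part by the filter. The median log2 fold change over the tested members was 3.45 in cortex, 2.35 in midbrain and 3.12 in cerebellum, against -0.01 over all genes in each region, and these medians share that limit. In whole tissue, more RNA per cell and more expressing cells cannot be told apart.

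**Figure D1:**
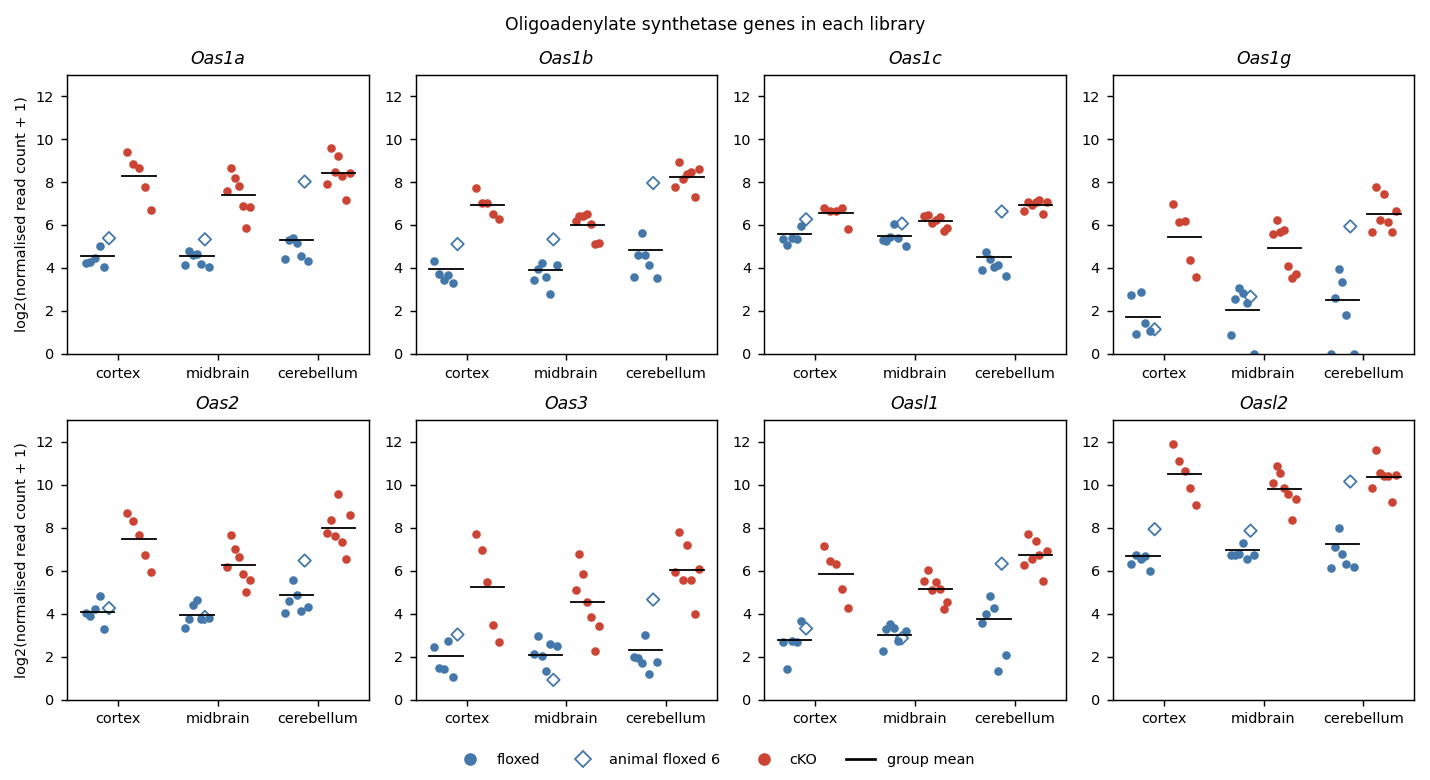
Level of each gene in each library, as log2(normalised read count + 1), by region, with floxed libraries in blue and cKO libraries in red; black bars are group means and open diamonds the animal floxed 6. In cortex and midbrain the cKO points sit above the floxed points for most genes. In cerebellum the open diamond lies among the cKO points for every gene but Oas2, where it lies just below them.

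Oas1a encodes an active 2-5A synthetase. In cortex the 5 cKO libraries, numbered 2 to 6, had Oas1a values of 668, 449, 406, 219 and 103, against 15.5 to 40.8 (median 19.5) in floxed libraries. Every cKO library was above every floxed library. The fold change was 13.4 (log2 3.75, 95% interval 2.92 to 4.58, adjusted p = 0.000307). In midbrain Oas1a ran from 15.4 to 39.3 (median 23.1) in floxed and from 56.7 to 397 (median 188) in cKO libraries, again without overlap (log2 2.86, SE 0.30, adjusted p = 5.8e-05). In cerebellum it ran from 19.3 to 258 (median 35.0) in floxed and from 144 to 777 (median 338) in cKO libraries (log2 3.12, SE 0.52, adjusted p = 0.000983). The value of 258 is the library labelled floxed cerebellum 6, and the other 6 floxed libraries were at 41.5 or less, below all cKO libraries. Without that library the Oas1a change in cerebellum was 12.4-fold in place of 8.67-fold (log2 3.64, adjusted p = 1.2e-06).

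Oas1g encodes a synthetase close to Oas1a and was at the edge of detection in floxed brain. Floxed values were 0.876 to 6.49 in cortex, 0 to 7.46 in midbrain and 0 to 60.1 in cerebellum, where the highest is again the library labelled floxed cerebellum 6. In cKO libraries Oas1g was 123, 70.5, 70.9, 19.8 and 11.1 in cortex, 10.5 to 74.8 (median 47.2) in midbrain and 50.2 to 218 (median 73.9) in cerebellum. Cortex and midbrain groups did not overlap. The log2 fold changes were 3.86 in cortex (SE 0.44, adjusted p = 0.000380), 2.89 in midbrain (SE 0.44, adjusted p = 0.000463) and 3.99 in cerebellum (SE 0.80, adjusted p = 0.00216; 4.66 without the library labelled floxed cerebellum 6), on a log2(value + 1) scale that understates changes from so low a base.

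Oas1b is the flavivirus resistance gene of mice, and C57BL/6 strains carry a truncated allele. GENCODE lists it as a polymorphic pseudogene. Cortex cKO values were 208, 131, 130, 91.6 and 76.3, against 8.86 to 33.6 (median 12.0) in floxed cortex, without overlap. Midbrain values ran from 5.99 to 39.3 (median 14.5) in floxed and 34.0 to 88.8 (median 72.6) in cKO libraries, where the floxed maximum, from animal floxed 6, lay above the 2 lowest cKO libraries. Cerebellum values ran from 10.4 to 247 (median 23.1) in floxed and from 155 to 480 (median 326) in cKO libraries. Oas1b rose 8.01-fold in cortex (adjusted p = 0.000368), and by 2.05 in midbrain (SE 0.33, adjusted p = 0.000750) and 3.36 in cerebellum (SE 0.57, adjusted p = 0.000993; 3.92 without the library labelled floxed cerebellum 6) on the log2 scale.

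Oas1c, whose product binds double-stranded RNA but lacks synthetase activity in mice, had the smallest log2 fold change of the tested members in each region. In cerebellum its 95% interval overlapped those of the other members. Cortex values of Oas1c were 110, 99.3, 99.1, 109 and 56.1 in cKO and 32.9 to 76.1 (median 40.9) in floxed libraries. Midbrain values were 51.2 to 87.3 (median 74.8) in cKO and 32.0 to 66.1 (median 40.5) in floxed libraries. The groups overlapped in both regions. The fold change was 1.94 in cortex (log2 0.95, 95% interval 0.45 to 1.46, adjusted p = 0.0141) and 1.58 in midbrain (log2 0.66, 95% interval 0.28 to 1.04, adjusted p = 0.0195). The cortex call was lost with the number in the title as a block (log2 0.93, adjusted p = 0.0825), a number not taken to pair the genotypes. The midbrain call was lost with depth as a covariate (log2 0.68, adjusted p = 0.107) and with all 6 groups in 1 fit (adjusted p = 0.178). In cerebellum the cKO libraries were at 90.2 to 143 (median 133) and the floxed libraries at 11.3 to 97.9 (median 16.5), a 5.41-fold difference (log2 2.44, SE 0.37, adjusted p = 0.000644). The floxed maximum is the library labelled floxed cerebellum 6, and without it the difference was 7.01-fold.

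Oas2 and Oas3 encode larger synthetases built of repeated synthetase units. Oas2 in cortex was 405, 313, 199, 107 and 61.5 in cKO libraries and 8.86 to 27.4 (median 16.6) in floxed libraries. In midbrain it was 31.4 to 203 (median 71.9) against 9.17 to 23.9 (median 13.1), and in cerebellum 91.4 to 759 (median 215) against 15.3 to 88.0 (median 23.5). Oas2 was the member whose cKO and floxed libraries did not overlap in any region, with the library labelled floxed cerebellum 6 included. The log2 fold changes were 3.45 in cortex (SE 0.32, adjusted p = 0.000255), 2.35 in midbrain (SE 0.28, adjusted p = 9.9e-05) and 3.11 in cerebellum (SE 0.46, adjusted p = 0.000620; 3.45 without that library).

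Oas3 was nearly silent in floxed brain, at 7.19 or less in cortex, 6.85 or less in midbrain and 1.28 to 24.3 (median 2.87) in cerebellum. Its cortex cKO values spread from 208 and 123 through 44.0 and 10.1 to 5.51, so that the lowest cKO library lay inside the floxed range. In midbrain cKO values ran from 3.76 to 109 (median 22.5), and in cerebellum from 14.7 to 224 (median 60.2). In cerebellum Oas3 rose 12.9-fold (log2 3.69, SE 0.59, adjusted p = 0.000831; 18.2-fold without the library labelled floxed cerebellum 6). With no filter on low values, Oas3 was 3.35 higher in cortex (adjusted p = 0.00801) and 2.48 higher in midbrain (adjusted p = 0.00410) on the log2 scale.

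Oasl1 and Oasl2 encode synthetase-like proteins with ubiquitin-like domains, and mouse OASL1 has been described as an inhibitor of IRF7 translation. Oasl2 was the most abundant member by normalised count. Its cortex cKO values were 3788, 2217, 1610, 916 and 531, against 62.2 to 244 (median 97.0) in floxed cortex. It was 326 to 1891 (median 928) against 91.1 to 232 (median 106) in midbrain and 591 to 3179 (median 1372) against 68.5 to 1137 (median 110) in cerebellum. Cortex and midbrain groups did not overlap, and in cerebellum the overlap again came from the library labelled floxed cerebellum 6. The Oasl2 log2 fold changes were 3.85 in cortex (SE 0.48, adjusted p = 0.00136), 2.85 in midbrain (SE 0.32, adjusted p = 0.000142) and 3.12 in cerebellum (SE 0.56, adjusted p = 0.00129; 3.67 without that library).

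Oasl1 was far lower. Its cKO values were 143, 85.7, 77.6, 35.0 and 18.3 in cortex, 17.9 to 65.1 (median 34.7) in midbrain and 45.6 to 209 (median 107) in cerebellum. Floxed values were 1.73 to 11.5 (median 5.61), 3.83 to 10.4 (median 8.28) and 1.52 to 79.5 (median 15.1) in the same regions. Groups overlapped in cerebellum alone, through the library labelled floxed cerebellum 6. The log2 fold changes were 3.13 in cortex (SE 0.51, adjusted p = 0.00197), 2.13 in midbrain (SE 0.25, adjusted p = 9.6e-05) and 2.97 in cerebellum (SE 0.61, adjusted p = 0.00240; 3.53 without it).

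**Figure D2:**
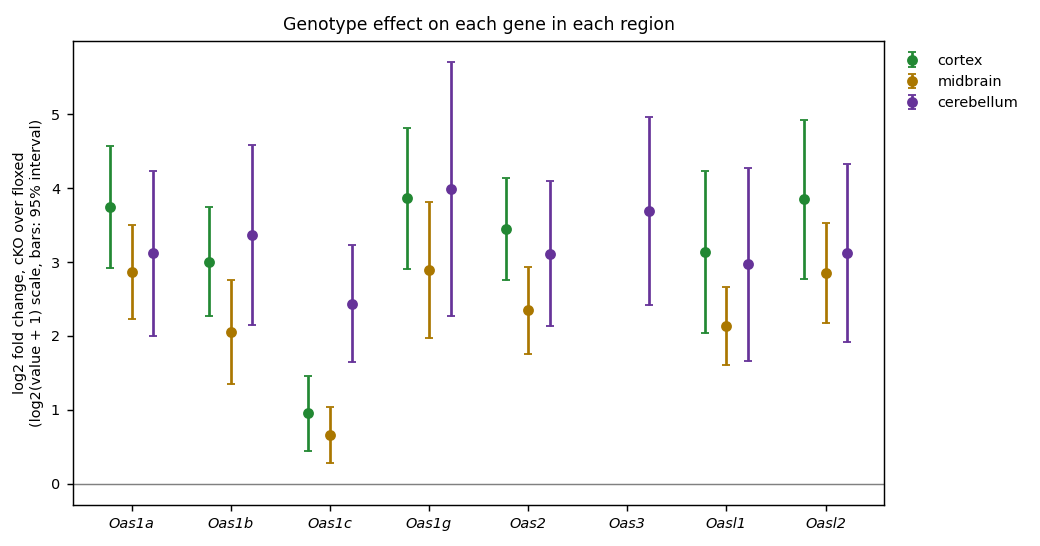
Log2 fold change of each gene, cKO over floxed, on the log2(value + 1) scale in cortex (green), midbrain (ochre) and cerebellum (purple), with 95% intervals. Oas1c stands low in cortex (0.95) and midbrain (0.66) and reaches 2.44 in cerebellum; Oas3 has a point in cerebellum alone because it was not tested in the other regions.

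Complete separation of the groups was counted over all genes as a reference. Every cKO library was above every floxed library for 6 of the 7 tested members in cortex, where 3.83% of all tested genes did so, for 5 of 7 in midbrain (1.97% of genes) and for 1 of 8 in cerebellum (2.91% of genes). Without the animal floxed 6, which was chosen after its values were seen, the counts were 6 of 7 (6.24% of genes), 6 of 7 (3.78%) and 8 of 8 (10.9%). Oas1g and Oasl1 are among the members counted in cortex and midbrain, having passed the filter through their cKO libraries. The same holds for Oas1g and Oas3 in the cerebellum count without floxed 6. Oas1c was the exception in cortex in both counts, and in midbrain without floxed 6.

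Whether the response differed between regions was tested with a fit of all 6 groups. It treated the regions of 1 animal as independent, and with the animal as a block the same members were called. Oas1c rose more in cerebellum than in cortex, by 1.47 on the log2 scale (95% interval 0.61 to 2.33, adjusted p = 0.0170), and more than in midbrain, by 1.78 (95% interval 0.97 to 2.58, adjusted p = 0.00151). Of the 8 members it alone was called in these contrasts, in which 6.40% and 10.4% of all genes were called with a larger effect in cerebellum. The first difference was lost without the animals cKO 5 and cKO 6 (1.32, adjusted p = 0.0672). Oas1b differed by 1.31 between cerebellum and midbrain (95% interval 0.01 to 2.61, adjusted p = 0.136), and leaving out the library labelled floxed cerebellum 6 made this a call (1.85, adjusted p = 0.00393). No member was called for midbrain against cortex, where 0.00600% of genes were called. All 8 differences there were negative, from -1.07 for Oas2 (95% interval -2.24 to 0.10) to -0.30 for Oas1c (95% interval -1.17 to 0.56), with adjusted p = 0.998 for each.

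The starting level of Oas1c also differed between regions. In floxed mice its log2 difference was -1.12 for cerebellum against cortex (SE 0.34, adjusted p = 0.00685), where 44.1% of genes were called lower, and -1.01 against midbrain (SE 0.33, adjusted p = 0.00992), where 42.9% were. After quantile normalisation these calls were lost (-0.60, adjusted p = 0.0872, and -0.42, adjusted p = 0.203). In that setting 4 other members were called higher in floxed cerebellum than in floxed cortex. They were Oas1a (1.25, adjusted p = 0.0102), Oas1b (1.44, adjusted p = 0.0193), Oas2 (1.30, adjusted p = 0.000903) and Oasl1 (1.61, adjusted p = 0.0115). Over all genes the median was -0.14 and -0.11 in these contrasts. Oas2 was higher in floxed cerebellum than in floxed midbrain by 0.92 (SE 0.33, adjusted p = 0.0187), where 26.6% of genes were called higher, a call lost among libraries labelled male (0.74, adjusted p = 0.0874). It stood 0.77 above cortex (adjusted p = 0.0534), a difference called with depth as a covariate (0.82, adjusted p = 0.0221) and with the number in the title as a block (0.79, adjusted p = 0.0235). Oas1a was also called higher in floxed cerebellum than in floxed midbrain with depth as a covariate (0.82, adjusted p = 0.0429). None of the 6 members tested was called between floxed midbrain and cortex, where 35.2% of genes were called. In cKO libraries Oas1c had means of 94.8 ± 22.3 (SD, n = 5) in cortex, 72.0 ± 14.1 (n = 7) in midbrain and 123 ± 19.8 (n = 7) in cerebellum.

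Per kilobase of merged exon, the order of the genes changed with genotype. In floxed cortex Oas1c was first at 20.2 ± 6.81 normalised counts per kb (SD, n = 6), followed by Oasl2 at 18.0 ± 10.3 and Oas1a at 12.8 ± 5.30, neighbours that do not differ beyond their spread. In cKO cortex Oasl2 was first at 284 ± 201 per kb (n = 5), Oas1a second at 196 ± 116 and Oas1c the fifth at 39.4 ± 9.26. By mean, Oasl2 led in the other 5 groups and Oas3 was last in all 6. In floxed midbrain Oasl2, at 20.2 ± 7.77 per kb, and Oas1c, at 19.1 ± 5.68 (n = 7), did not differ beyond their spread. In floxed cerebellum the median per kb was 18.6 for Oas1a and 17.3 for Oasl2. The place of Oasl2 in the floxed groups rests on the length used. Oasl2 has 6374 bases of merged exon but 3123 in its longest coding transcript, against 2405 and 2291 for Oas1c. By transcript length the level of Oasl2 per kb would be higher, and that order was not computed. Oas1c made up 21.9% of the summed normalised count of the 8 genes in floxed cortex and 4.46% in cKO cortex, while in cerebellum its share was 7.67% and 4.83%.

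The cKO animals differed in how high their synthetases stood, and the number in a title is read here as the animal. Animal cKO 2 had the highest value for 8 of the 8 genes in cortex, 7 in midbrain and 6 in cerebellum. Animal cKO 6 had the lowest for 8 of 8 in all 3 regions. Between these ends the order changed: the mean rank over the 8 genes, from 1 for the highest library, was 6 in midbrain and 2.75 in cerebellum for cKO 7, and 2.88 and 4.38 for cKO 3. Averaged over the genes, the level on the log2(value + 1) scale was 8.29 in cKO 2 and 5.55 in cKO 6 in cortex, 7.39 and 5.01 in midbrain, and 8.61 and 6.49 in cerebellum. Gfap, the intermediate filament gene of reactive astrocytes, stood at 40760 in the cortex of cKO 2 and 6215 in that of cKO 6, and at 37120 and 11965 in midbrain. In cerebellum it stood at 33937 and 15071, and its highest value, 63053, was in cKO 1, whose synthetases were not high. The summed level of 10 microglia markers was highest in cKO 2 and lowest in cKO 6 in cortex (19827 and 8960) and midbrain (13921 and 7762). In cerebellum it was highest in cKO 4 (12034) and lowest in cKO 5 (6995). The part of either in these orders was not tested. Animals cKO 5 and cKO 6 were the 2 cKO animals with Xist, and a sex difference was not tested. With these animals left out, chosen after their values were seen, the tested members were called in every region.

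**Figure D3:**
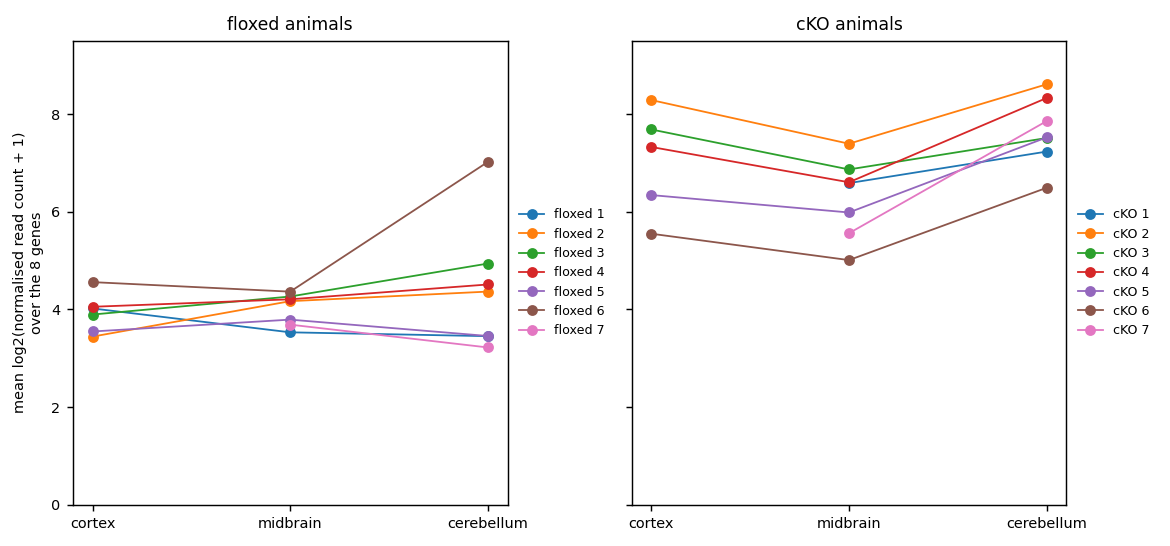
Mean of log2(normalised read count + 1) over the 8 genes in each animal's cortex, midbrain and cerebellum, floxed animals on the left and cKO animals on the right, with lines joining the regions of 1 animal. Animal cKO 2 is at the top and cKO 6 at the bottom of the cKO panel in all 3 regions, and floxed 6 leaves the other floxed animals in cerebellum, at 7.02.

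The genes around 2-5A that are reported here did not pass the test for a rise. Akap7, whose product has 2-5A-degrading activity, fell in cortex by 0.29 (SE 0.08, adjusted p = 0.0183) and in cerebellum by 0.49 (SE 0.13, adjusted p = 0.00846) on the log2 scale. In midbrain its change was -0.11 (adjusted p = 0.104). Abce1, an ATP-binding protein of ribosome recycling, Pde12, a phosphodiesterase that degrades 2-5A, and Enpp1, another enzyme reported to do so, did not pass the threshold in any region (log2 changes from -0.30 to 0.12). Thus 0 of these 4 genes rose in any region, and 1, 0 and 1 fell, where 12.9%, 7.61% and 19.6% of all genes fell. The other Oas1 paralogues of the cluster, Oas1d, Oas1e, Oas1f and Oas1h, stayed below the filter, with no grouped library above 5.76.

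Other sensors and effectors of double-stranded RNA rose in part. Of 9 tested, 5 rose in cortex (10.5% of all genes), 5 in midbrain (8.48% of all genes) and 6 in cerebellum (19.4% of all genes). Zbp1, a sensor of Z-form nucleic acid, rose by 3.85, 1.81 and 2.93 on the log2 scale, Ddx58, which encodes RIG-I, by 1.68, 1.52 and 2.17, and Eif2ak2, which encodes the kinase PKR, by 1.52, 1.04 and 1.60. Dhx58, whose product regulates RIG-I, rose by 2.10, 1.46 and 1.29. The remaining genes are named after their values were seen: Ifih1, which encodes MDA5, rose in each region. The adaptor gene Mavs rose in cerebellum (0.67, adjusted p = 0.000995), where Prkra, an activator of PKR, fell by 0.23 (adjusted p = 0.0400). Adar, which edits double-stranded RNA, and Tlr3, an endosomal receptor for it, did not pass in any region.

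Of 14 interferon receptor and ISGF3 genes, 8 rose and 1 fell in cortex, 7 rose in midbrain, and 8 rose and 2 fell in cerebellum. The shares of all genes that rose and fell were 10.5% and 12.9% in cortex, 8.48% and 7.61% in midbrain, and 19.4% and 19.6% in cerebellum. Irf7 and Usp18, both interferon-induced regulators of the response, rose with log2 changes of 3.63 and 3.38 in cortex, 2.47 and 2.62 in midbrain, and 2.94 and 2.76 in cerebellum. Irf9, the DNA-binding part of ISGF3, rose by 1.47, 1.07 and 1.28, and the transcription factor gene Irf1 by 0.64, 0.47 and 1.39. Ifnar1, a chain of the type I interferon receptor, did not pass in any region. Ifnar2, the other chain, was called higher in cerebellum without the library labelled floxed cerebellum 6 (0.37, adjusted p = 0.0319). The 20 interferon genes themselves were all below the filter. Their highest single value was 10.9, for Ifnz in a cKO cerebellum library. The number listed at 0 in every library of a group was 18 in cKO cortex, 14 in midbrain and 17 in cerebellum. In the floxed groups it was 16, 16 and 14. Ifnb1 was at 0 throughout every group except cKO cortex, where no interferon gene was above 2.55.

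**Figure D4:**
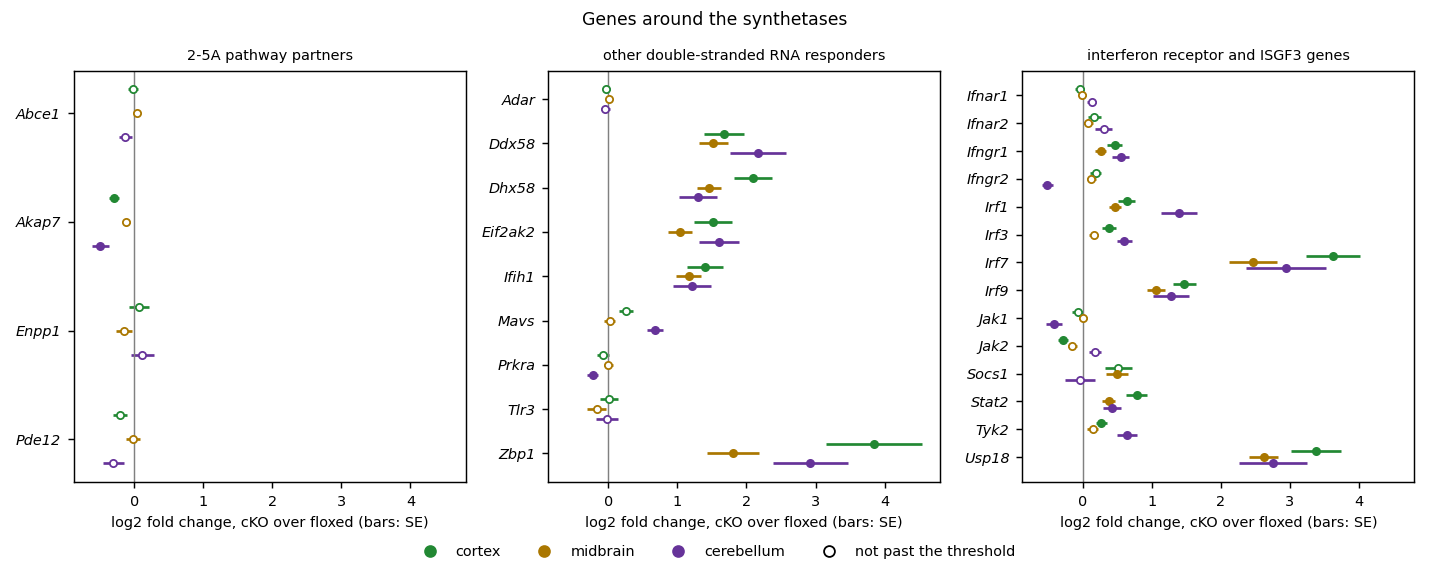
Log2 fold change, cKO over floxed, with SE, of the 2-5A partners, other responders to double-stranded RNA, and interferon receptor and ISGF3 genes, in cortex (green), midbrain (ochre) and cerebellum (purple); open circles did not pass an adjusted p of 0.05. The partners lie near 0, while Zbp1, Irf7 and Usp18 lie furthest to the right.

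The genes whose pattern over the 39 libraries was most like that of the members were found from the root mean square difference between centred log2 profiles, among 13919 candidates. The 6 nearest were Usp18 (0.29), Bst2 (0.32), Irf7 (0.39), Ifi27l2a (0.39), Rtp4 (0.42) and Ifit1 (0.43 log2 units). Bst2 encodes tetherin, which holds budding virus at the cell surface, and Ifit1 encodes a protein that binds foreign RNA caps. Measured the same way against the other members, Oas1a was nearest (0.39) and Oas1g (0.89) and Oas1c (1.18) were farthest of the 7 members with a value.

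Several cell type markers moved with the synthetases. Over all tested genes, 10.5% rose and 12.9% fell in cortex, 8.48% and 7.61% in midbrain, and 19.4% and 19.6% in cerebellum. Among 10 microglia markers the number that rose was 7 for cortex, 5 for midbrain and 10 for cerebellum, while P2ry12 fell in cortex and midbrain. Their summed level ran from 2510 to 7952 in floxed and from 6995 to 12034 in cKO cerebellum, the floxed maximum being the library labelled floxed cerebellum 6. In cortex it ran from 8124 to 12470 in floxed and from 8960 to 19827 in cKO libraries, and in midbrain from 7016 to 10183 and from 7762 to 13921. Of 10 astrocyte markers only Gfap rose in each region, by 2.30, 1.25 and 2.55, while 4, 6 and 5 fell, among them Gja1 and Aqp4. Without the library labelled floxed cerebellum 6, Aldh1l1 was also called higher (0.36, adjusted p = 0.0145) and S100b lower (-0.83, adjusted p = 0.0320) in cerebellum. Leukocyte markers had a median sum of 677 in floxed and 742 in cKO cortex and 179 and 294 in midbrain, and summed to 80.4 to 194 and 163 to 1057 in cerebellum. In floxed cortex 1 marker alone reached 880, where the largest sum was 972. Of 13 leukocyte markers 3, 2 and 5 were tested in cortex, midbrain and cerebellum, and 1, 1 and 3 rose. Choroid plexus markers summed to 1031 to 69722 in floxed and 1042 to 286781 in cKO cerebellum, where 0 of 6 passed the test, while 5 of the 6 fell in midbrain and 1 rose and 1 fell in cortex. Of 8 endothelial markers 7 fell in midbrain and 0 elsewhere, of 8 neuron markers 5 fell in cerebellum and 1 in cortex and 1 rose in cortex and in midbrain, and of 8 oligodendrocyte markers 3 fell in cortex, 3 in midbrain and 1 in cerebellum. The part of all these cells in the synthetase values was not tested.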

How the data were processed

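Polyadenylated RNA of 41 libraries was sequenced as paired reads of 50 bases and, per the labels' protocols, an unstranded kit. STAR, Salmon, DESeq2 and mm10 appear in the submitters' processing notes without version or order. Although named for raw counts, the table the authors deposited holds a normalised signal that is not whole: 87.4% of 74991 low values lay within 0.1 of a whole multiple of a library's step, so whole reads were not recovered and no count model was used.

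Of 24972 entries, 26 turned into dates were dropped and 24946 kept. Each region was fitted alone with limma 3.58.1 (R 4.3.3; trend and robust) on log2(value + 1), with labelled sex as covariate, for genes at 10 or more in as many libraries as the smaller group. A gene was called when its adjusted p (Benjamini-Hochberg, all genes tested) was under 0.05. Region differences came from a fit of all 6 groups, floxed regions from a fit of floxed libraries. Both treated the regions of 1 animal as independent, with the animal as a block among the alternatives. Intervals use limma's moderated degrees of freedom, and the procedure was tested on simulated data. Depth was compared by an exact permutation test. Named genes were all members and the genes around 2-5A, up to 4 of each further list by summed p ranks over the regions (others are named in counts or as exceptions), and the 6 genes most alike. Some genes of the lists are not reported here. The members and lists were chosen with earlier results of these data known.

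RNA came from each animal's whole tissue, per the labels. Alternatives were other pseudocounts, filters, scalings, covariates, variance models, blocks and left-out libraries. Sequences came from RefSeq windows of GRCm38.p6, coordinates from GENCODE GRCm38.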

Additional observations from a re-analysis of the deposited data

Results flagged for a closer look

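Among 48 groups of gene and condition, 11 had a sample far from the others by Dixon's test. The groups share libraries and were tested on untransformed values, so the nominal rate of 1 in 20 gives no chance count here. The library labelled floxed cerebellum 6 was the sample in 7 of the 11. Its values were 258 for Oas1a, 247 for Oas1b, 97.9 for Oas1c, 60.1 for Oas1g, 24.3 for Oas3, 79.5 for Oasl1 and 1137 for Oasl2, all above the other 6 floxed cerebellum libraries. The same animal stood apart for Oas1b in floxed midbrain (39.3) and Oasl2 in floxed cortex (244). Animal cKO 6 was low for Oas1c in cortex (56.1), and animal cKO 2 high for Oasl2 in cerebellum (3179).

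The Oas1c genotype effect differed between regions, being larger in cerebellum than in cortex by 1.47 and than in midbrain by 1.78 on the log2 scale in the tested contrasts of all 6 groups.

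The cKO library whose labels name both cortex and midbrain took no part in the comparisons. It had 252 for Oas1a, 137 for Oas1b, 76.6 for Oas1c, 49.0 for Oas1g, 169 for Oas2, 25.7 for Oas3, 47.7 for Oasl1 and 1325 for Oasl2, each above all 13 floxed cortex and midbrain libraries. The floxed library with the same conflict was within the range of those 13 libraries for each of the 8 genes, with Oas1a at 22.6 and Oas1g at 0.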

How the results depend on the processing

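In the comparisons of genotype within a region, 6 to 8 members were called in cortex over 29 alternatives, 6 to 8 in midbrain over 32 and 8 in cerebellum over 32. The calls lost were those of Oas1c with replicate number as a block in cortex (0.93, adjusted p = 0.0825), and with depth as covariate (0.68) or 1 fit of all groups in midbrain. The count of all genes called in cortex was 3693, against 2040 without sex, 1623 with Xist in place of labelled sex, 1164 with the replicate block and 2302 in 1 fit of all groups. In midbrain it was 2524, against 687 with depth and 961 in 1 fit. For cerebellum minus cortex it was 2414, and 3745 with array weights. For midbrain minus cortex it was 1, against 63 with array weights, 2 with the replicate block, and 6 without the libraries whose Xist goes against their label or without the animal floxed 6. Scaling to equal totals moved the share of called genes that rose from 44.8 to 59.2% in cortex and from 49.6 to 63.3% in cerebellum.

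For cerebellum minus midbrain 1 member was called, and 2 with array weights, without the libraries whose Xist goes against their label or without the animal floxed 6 (1 to 2 leaving out single libraries). For cerebellum minus cortex it was 1, and 0 without cKO 5 and cKO 6. For floxed cerebellum minus cortex 1 was called, 4 with quantile normalisation, and 2 with scaling to totals, median-of-ratios factors, depth, array weights, the replicate block (Oas2, 0.79, adjusted p = 0.0235), the libraries labelled male (the same set as without those numbered 5, 6 and 7), without the Xist libraries or without floxed 6 (1 to 3 leaving out single libraries). For floxed cerebellum minus midbrain 2 were called, 4 with quantile normalisation and 1 without the Xist libraries (2 to 4 leaving out single libraries). Oas1a was the additional call there with depth (0.82, adjusted p = 0.0429) and without floxed 6 (0.47, adjusted p = 0.0449). The highest of these counts, 3 and 4, came without floxed cerebellum 5 or 7 and without floxed cerebellum 7. Leaving out the Xist libraries, cKO 5 and 6, or floxed 6 was chosen after seeing the data.

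Values of uncalled differences that changed sign were as follows. For floxed midbrain minus cortex, Oas1a was 0.036 with scaling to totals, 0.014 with Xist, 0.048 in labelled males, 0.070 without the Xist libraries and 0.063 without floxed 6 (-0.23 to 0.10 leaving out single libraries). Oas1b was 0.047, 0.021, 0.010, 0.15 and 0.070 in the same settings and 0.0054 with the replicate block (-0.27 to 0.18). Oas1c was 0.14 with array weights, 0.21 in labelled males and 0.23 without the Xist libraries (-0.24 to 0.011), and Oasl2 ran from -0.022 to 0.45. For floxed cerebellum minus midbrain, Oasl2 was -0.047 with array weights, -0.015 without the Xist libraries and -0.046 without floxed 6 (-0.20 to 0.52). For the genotype effect in cerebellum minus cortex, Oas1g was -0.13 with Xist, -0.13 in labelled males and -0.43 without cKO 5 and 6 (-0.34 to 0.85), Oas3 -0.24 and -0.47 in the last 2 (-0.11 to 0.90), Oasl1 0.077 without floxed 6 (-0.54 to 0.31), and Oas2 -0.58 to 0.037. For cerebellum minus midbrain Oas1a was -0.13 with quantile normalisation. The cause was not tested.

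Same-numbered libraries of different regions deviated together in most pairs (median correlation 0.26, over 0.1 in 34 of 36), and same-numbered floxed and cKO libraries did not (median -0.075, over 0.1 in 4 of 19), so the numbers were not taken to pair the genotypes. Depth by genotype ran from -0.51 to -0.31 in midbrain and from -0.93 to -0.54 in cerebellum leaving out single libraries, and in midbrain p passed 0.05 without most of them. Oas1g and Oas3 were under 10 in every floxed cortex and midbrain library.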

Other observations

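Apol9a and Apol9b, apolipoprotein L genes that share the 16-base promoter stretch with Oas1a, Oas1g and Oas1c, were looked at for that sequence. Apol9a rose by 3.20 in cortex (adjusted p = 0.00230), 1.93 in midbrain (adjusted p = 0.00887) and 2.57 in cerebellum (adjusted p = 0.00219) on the log2 scale by limma. Apol9b rose by 3.20, 2.15 and 3.22 (adjusted p = 0.000255, 0.000184 and 0.000986).

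The conflicting libraries were also read for region markers. Cortex markers summed to 11156 in the floxed and 9226 in the cKO library and midbrain markers to 164 and 1269, with no group assigned from these values. Cortex markers ran from 8310 to 11336 in floxed cortex and 4834 to 7365 in floxed midbrain, and from 9245 to 10956 and 6106 to 7486 in cKO. Midbrain markers ran from 164 to 343 in floxed cortex and 1239 to 1859 in floxed midbrain, and from 240 to 626 and 675 to 1363 in cKO.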
